A study of Mus musculus with 4 samples.

Results

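The genes described here are the fatty acid desaturases and elongases Scd1, Scd2, Fads1, Fads2, Elovl1, Elovl5 and Elovl6, 7 of the 27998 genes of a single-cell RNA-seq matrix of mouse small intestine. They were taken as a list by symbol, and all 7 were among the gene names and had UMIs (unique molecular identifiers, which count captured RNA molecules). Male mice were kept on a control diet or on a ketogenic diet, which is rich in fat and very poor in carbohydrate, and their dissociated intestines were sequenced as 2 libraries per diet. The sources used here give no strain, age, genotype, time on the diet or diet composition, so the diets are known by name only. Each cell carried 1 of 7 cell type names that the authors assigned, and the number of animals behind a library is not stated, so p-values reflect how far these libraries lie apart, part of which may be technical.

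Long-chain fatty acids reach the cell from the diet or from synthesis, which ends at palmitate. Elongases of the Elovl family start each lengthening cycle at the endoplasmic reticulum by condensing an acyl-CoA with malonyl-CoA. Desaturases insert double bonds with electrons passed on by cytochrome b5. Stearoyl-CoA desaturases (Scd1, Scd2) make oleate and palmitoleate from saturated chains, while Fads2 (delta-6) and Fads1 (delta-5) desaturate the essential polyunsaturated chains. Their transcription is known to respond to the sterol-regulated factors SREBP1 and SREBP2, to the liver X receptor and to polyunsaturated fat, and the small intestine takes up most dietary fat through its enterocytes.

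Scd1 and Scd2 are the closest pair of the list, and both are counted in the diet comparison. A stretch of each, around their last shared cluster of histidine codons, is therefore printed here. Their coding sequences were identical at 90.3% of 1065 aligned bases, against 67.9% for Fads1 and Fads2. Both 120-base stretches span exons 5 and 6 of 6 in their GENCODE M21 transcripts (mm10), with capitals at the 11 bases that differ. The Scd1 stretch lies on the minus strand at chr19:44400142-44400190 and chr19:44398048-44398118. The Scd2 stretch lies on the plus strand at chr19:44301396-44301444 and chr19:44303001-44303071.
Scd1: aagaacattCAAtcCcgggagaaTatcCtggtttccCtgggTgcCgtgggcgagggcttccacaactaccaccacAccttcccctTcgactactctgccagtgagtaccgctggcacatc
Scd2: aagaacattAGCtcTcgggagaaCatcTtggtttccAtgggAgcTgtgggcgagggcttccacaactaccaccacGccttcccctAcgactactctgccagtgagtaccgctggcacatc
The 3' ends, which 3' libraries count, differed more, with 73.5% identity over 437 aligned bases of the last 500 transcript bases. None of the 451 windows of 50 bases in the last 500 bases of any of the 7 genes occurred in a transcript of another gene (0 shared).

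The elongases are condensing enzymes with a histidine box, a run of 3 histidines within 5 residues that is part of the active centre. The 3 elongase genes hold 1 such box each. Their coding sequences were pairwise identical at 62.0% to 63.1% of aligned bases. In the stretches of 63 coding bases below (GENCODE M21, mm10), capitals mark the histidine codons of the box. They lie in exon 6 of 8 of Elovl1 (chr4:118431430-118431492, plus strand), exon 5 of 8 of Elovl5 (chr9:77976826-77976888, plus strand) and exon 5 of 5 of Elovl6 (chr3:129633083-129633145, plus strand).
Elovl1: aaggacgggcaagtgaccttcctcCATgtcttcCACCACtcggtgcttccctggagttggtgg
Elovl5: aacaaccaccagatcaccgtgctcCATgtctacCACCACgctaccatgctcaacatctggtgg
Elovl6: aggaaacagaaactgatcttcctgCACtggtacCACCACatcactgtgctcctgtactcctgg
The 4 desaturase genes sit in 2 clusters on chromosome 19 (mm10, GENCODE M21). Scd2 (44293674 to 44306864, plus strand) and Scd1 (44394455 to 44407879, minus strand) are 87.6 kb apart. Fads2 (10062765 to 10101746, minus strand) and Fads1 (10182888 to 10196877, plus strand) are 81.1 kb apart, and the end of Fads3, another desaturase of the family on the opposite strand, lies 2654 bases from the end of Fads2. Elovl1 spans 118428093 to 118432953 on the plus strand of chromosome 4, Elovl5 spans 77917364 to 77984519 on the plus strand of chromosome 9, and Elovl6 spans 129532355 to 129638495 on the plus strand of chromosome 3. The 3' end of Elovl1 overlaps Cdc20, a cell division gene on the opposite strand. The sources used here do not say whether counting used the strand, so reads of that overlap cannot be assigned with certainty, which limits the Elovl1 values.

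The 4 libraries held 3194 to 4896 cells and 27316428 to 34106639 UMIs each, 15053 cells in all. Cell types ranged from 35 to 56 Paneth cells to 1748 to 2771 enterocytes per library. Cells with at least 10% mitochondrial UMIs, a sign of stressed cells, made up 37.96% to 44.97% of a library. Of the cell barcodes, 108 occurred in 2 libraries and 1 in 3. The deposited types were set beside marker genes, and every marker of each type's own list was detected in every library. Detection alone does not separate the types, since all 10 enterocyte and all 8 goblet markers were also detected in every stem cell sum. The types were also assigned from the same cells. The summed goblet markers (Muc2, Tff3 and 6 others) reached 57280 to 98870 CPM (UMIs scaled to a common library total) in the Paneth class, against 72980 to 85340 CPM in the goblet class, so that class also carried goblet transcripts. Its own Paneth markers stood at 48100 and 106500 CPM with control feeding against 181100 and 224400 CPM with ketogenic feeding. In a summed cell type, fewer expressing cells and less RNA per cell cannot be told apart.

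Scd2, a stearoyl-CoA desaturase, was lower in both ketogenic libraries than in both control libraries in 7 of 7 cell types. UMIs were summed per library and cell type and tested with edgeR's quasi-likelihood test, with Benjamini-Hochberg adjustment over all genes tested in that type and a threshold of 0.05. Scd2 fell in stem cells, transit amplifying cells and goblet cells, and it was the 1 gene of the 7 called in each of them. Across all genes tested, 0.336% were called in stem cells, 0.715% in transit amplifying cells and 0.521% in goblet cells, and 0.0736%, 0.258% and 0.21% were called lower. In the enterocytes and in all cells together 0 of 7 were called by edgeR, where 0.18% and 0.172% of all genes were called. At an unadjusted p under 0.05, 3 and 4 of the 7 were lower, as were 5.45% and 5.33% of all genes. DESeq2 called 2 and 1 of the 7, and 1.53% and 1.79% of all genes. Scd1 is among the 3, the 4 and the 2, though it passed the filter on low counts through the control libraries alone. Scd2 passed that filter in the same way in enteroendocrine cells, so that type's place among the 7 is no further support. A gene with both ketogenic libraries below both control libraries was common. Such genes made up 17.5% of those tested in stem cells, 19.6% in transit amplifying cells, 20.5% in enterocytes, 19.1% in goblet cells, 20.1% in the Paneth class, 16.1% in enteroendocrine cells, 16.5% in tuft cells and 21.1% in all cells.

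In goblet cells, the mucus producers, Scd2 stood at 176 and 118 CPM with control feeding against 28.7 and 34.0 CPM with ketogenic feeding. The groups did not overlap, and control library 1 stood 1.49 times above control library 2. The log2 fold change was -2.23 ± 0.16 (SE, n = 2 libraries per diet), a 4.69-fold lower level (95% interval 3.68 to 5.98), and edgeR gave an adjusted p of 1.93e-06.

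In transit amplifying cells, the dividing progenitors, Scd2 measured 166 and 87.0 CPM on the control diet and 22.5 and 32.0 CPM on the ketogenic diet. Both ketogenic values were below both control values, and control library 1 stood well above control library 2. Scd2 fell by 2.18 ± 0.26 on the log2 scale (adjusted p = 0.00149 by edgeR).

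In stem cells the level was lower on both diets, at 70.0 and 35.3 CPM with control feeding against 15.5 and 18.4 CPM with ketogenic feeding. The groups did not overlap, and again control library 1 was the highest. Scd2 fell by 1.54 ± 0.25 on the log2 scale, a 2.91-fold lower level (95% interval 2.03 to 4.18, adjusted p = 0.00193 by edgeR). Among stem cells with under 10% mitochondrial UMIs edgeR did not call it (adjusted p = 0.180, -0.97 on the log2 scale). That limit removes 44.0% to 59.8% of the stem cells of a library.

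In enterocytes, the absorptive cells that make up most of each library, Scd2 stood at 219 and 106 CPM with control feeding against 23.0 and 34.4 CPM with ketogenic feeding. The ketogenic libraries were lowest in the same order as in the progenitors. On the log2 scale the difference was -2.50 ± 0.35, a 5.65-fold lower level (95% interval 3.17 to 10.1), and it missed the threshold by edgeR (adjusted p = 0.0659) but passed it by DESeq2 (adjusted p = 0.00214). Leaving out control library 1 gave a log2 fold change of -1.88 and leaving out control library 2 gave -2.95, and both of these values were called (adjusted p = 6.13e-05 and 4.08e-06 by edgeR). Without ketogenic library 1 or 2 it was -2.25 and -2.82, and neither was called (adjusted p = 0.168 and 0.105 by edgeR). In all cells summed the values were 192 and 95.02 CPM against 22.7 and 32.1 CPM, and the difference on the log2 scale was -2.39 ± 0.34 (adjusted p = 0.0723 by edgeR and 0.00148 by DESeq2).

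**Figure D1:**
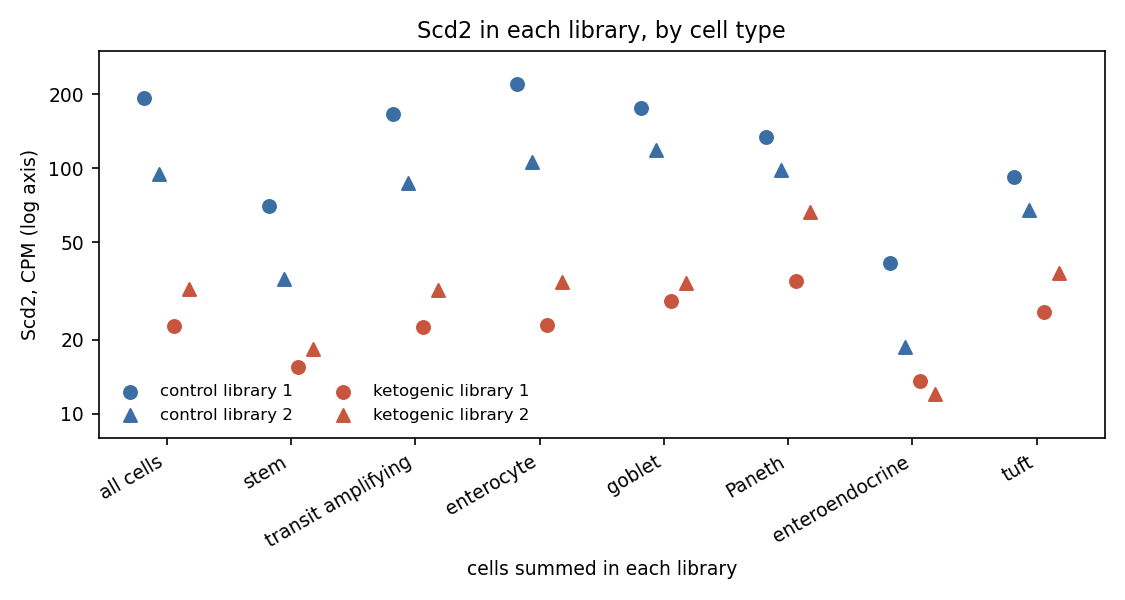
Scd2 level in CPM (log axis) for each library, by the cells that were summed; circles and triangles are libraries 1 and 2, blue is control and red is ketogenic. In each of the 8 columns both red points lie below both blue points, and the blue circle, control library 1, is the highest.

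The rarer types gave lower values on the ketogenic diet that did not pass the test. In the Paneth class, which secretes antimicrobial peptides, Scd2 was at 134 and 97.9 CPM on the control diet and at 34.6 and 66.4 CPM on the ketogenic diet (log2 fold change -1.23 ± 0.34, adjusted p = 0.312 by edgeR, where 0.44% of 2957 genes were called). In tuft cells, the chemosensory type, it was at 91.6 and 67.5 CPM against 25.9 and 37.5 CPM (-1.31 ± 0.27, adjusted p = 0.247 by edgeR, with 0.0144% of 6963 genes called). In enteroendocrine cells, which release gut hormones, it was at 41.0 and 18.7 CPM against 13.6 and 12.1 CPM (-1.05 ± 0.46, unadjusted p = 0.0368 by edgeR, not called, with 0.0582% of 6877 genes called). Scd2 passed the filter on low counts in enteroendocrine cells through the control libraries alone. Its fitted value and p there are therefore no further support. The groups did not overlap in any of the 3 types, though ketogenic library 2 of the Paneth class stood well above ketogenic library 1. Leaving out 1 library moved the value from -0.76 to -1.69 in the Paneth class (without ketogenic library 1 and 2) and from -0.52 to -1.63 in enteroendocrine cells (without control library 1 and 2).

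Control library 1 exceeded control library 2 in 7 of 7 types, by 1.36 to 2.20 times. Ketogenic library 2 exceeded ketogenic library 1 in 6 of 7 types. The types of a library share 1 preparation, so the 7 types are not 7 independent observations. All 94 Scd2 fold changes computed under other settings, over 10 populations of cells, were also negative.

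Whether the size of the Scd2 difference varied between cell types was tested as an interaction of type and diet, with the library as a block. The difference from enterocytes was 0.85 ± 0.22 in stem cells (adjusted p = 0.118 by edgeR), 1.14 ± 0.30 in tuft cells (adjusted p = 0.0565) and 1.21 ± 0.35 in the Paneth class (adjusted p = 0.115), on the log2 scale and positive where the decrease was smaller. It was 0.28 ± 0.14 in transit amplifying cells and 0.25 ± 0.17 in goblet cells, with adjusted p values of 0.936 and 0.706 by edgeR. Enteroendocrine cells gave 1.44 ± 0.43 (adjusted p = 0.287 by edgeR), and stem against transit amplifying cells gave 0.54 ± 0.22 (adjusted p = 0.547). Without control library 2 the Scd2 difference from enterocytes was called in stem cells (0.89, adjusted p = 0.00815), tuft cells (1.44, adjusted p = 0.000804) and the Paneth class (1.48, adjusted p = 0.0288 by edgeR), and without each of the other libraries it was not called in them. Over 8 pairs of populations, 51 tests on the 7 genes gave 0 past the threshold and 11 at an unadjusted p under 0.05. The share of all genes at that unadjusted level was not computed for these fits, so the 11 cannot be judged. They include Scd1 in stem cells against enterocytes, where stem cells held 1 UMI with control feeding and 3 with ketogenic feeding. Among all genes, 0.259% were called for stem cells, 0.203% for tuft cells, 0.344% for the Paneth class, 0.0871% for transit amplifying cells, 0.61% for goblet cells and 0.22% for enteroendocrine cells, all against enterocytes, and 0.194% for stem against transit amplifying cells.

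As a measure of enterocyte RNA in the other types, Scd2 was set beside 10 enterocyte markers that are not lipid genes (Alpi, Anpep, Slc5a1 and others), both as a percentage of the enterocyte level in the same library. In goblet cells the markers stood at 10.4% to 13.5% of the enterocyte level and Scd2 at 81.1% to 126%. In transit amplifying cells the markers stood at 29.3% to 42.5% and Scd2 at 76.6% to 97.8%, and in tuft cells at 8.69% to 13.3% and 40.3% to 113%. In stem cells the 2 ranges overlapped, at 29.3% to 48.8% for the markers and 32.2% to 68.1% for Scd2. Within each stem library Scd2 was above the markers, from 32.2% against 29.3% in control library 1 to 68.1% against 36.8% in ketogenic library 1. In the Paneth class the markers stood at 8.86% to 17.4% and Scd2 at 64.0% to 163%. In enteroendocrine cells the markers exceeded Scd2 in 3 of 4 libraries, at 43.0% to 52.9% against 16.5% to 58.1%. The figures depend on the markers taken. With another list of 10 enterocyte markers that includes apolipoproteins and fatty acid carriers, the markers stood at 24.4% to 43.4% in goblet cells, 31.1% to 39.2% in transit amplifying cells, 15.2% to 22.2% in stem cells, 14.5% to 37.2% in the Paneth class, 10.4% to 23.8% in enteroendocrine cells and 5.82% to 16.2% in tuft cells. The summed non-lipid markers were themselves lower on the ketogenic diet in enterocytes, at 650 and 421 CPM with control feeding against 407 and 332 CPM with ketogenic feeding, and in goblet cells they ranged from 42.3 to 72.9 CPM with all 10 detected in 3 of 4 libraries. The list with lipid genes went the other way in enterocytes, at 4173 and 4104 CPM with control feeding against 10620 and 5938 CPM with ketogenic feeding. The part of either marker list in the Scd2 result was not tested.

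**Figure D2:**
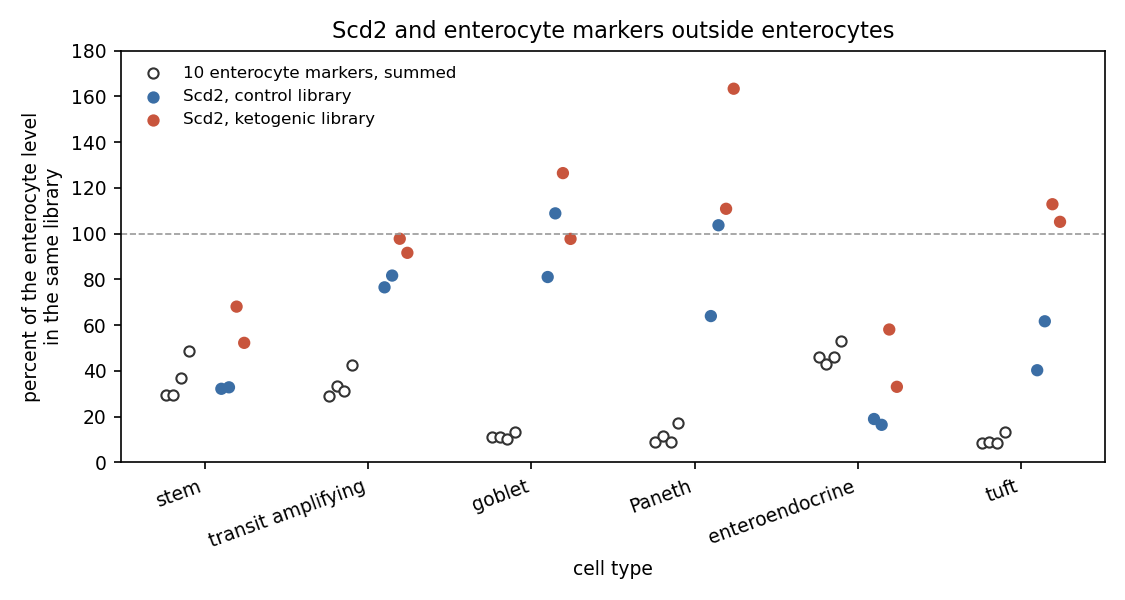
Scd2 (filled) and 10 summed enterocyte markers (open) in 6 cell types, as a percentage of the enterocyte level in the same library; each point is 1 library. In goblet cells the markers lie between 10.4% and 13.5% and Scd2 between 81.1% and 126%, while in stem cells the ranges overlap.

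Enterocytes were also divided in each library at the median of a score of villus tip against villus base genes. The tip genes were at or near 0 in the lower-scoring enterocytes (0 to 0.263 CPM). The base genes were no higher there with control feeding (6492 and 6418 CPM, against 11460 and 8205 CPM in the higher-scoring enterocytes), so the 2 groups are not a clean order of maturity. In the higher-scoring enterocytes both lists were lower with ketogenic feeding, the base genes at 5193 and 6453 CPM and the tip genes at 154 and 138 CPM against 352 and 181 CPM, with control library 1 the highest. Their part in the Scd2 values of these cells was not tested. Scd2 in the lower-scoring enterocytes was at 193 and 122 CPM with control feeding against 26.3 and 32.0 CPM with ketogenic feeding. It fell there (log2 fold change -2.43 ± 0.21, adjusted p = 0.00554 by edgeR, with 0.447% of genes called). In the higher-scoring enterocytes it was at 238 and 91.2 CPM against 20.2 and 36.6 CPM (-2.53 ± 0.49, adjusted p = 0.282 by edgeR, where 0% of 11055 genes were called). The difference between the 2 groups of enterocytes in 1 fit was -0.02 ± 0.29, and 0% of all genes were called for that difference. Without control library 2 it was -0.37 and called (adjusted p = 0.0220 by edgeR), and without control library 1 it was 0.41 and not called.

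Scd1, the stearoyl-CoA desaturase that dominates in liver and skin, had few counts here. All cells together held 74 Scd1 UMIs with control feeding and 4 with ketogenic feeding, against 8823 and 1607 for Scd2. Enterocytes held most of them, with 50 and 15 UMIs in control libraries 1 and 2, and 1 and 0 UMIs in ketogenic libraries 1 and 2. The ratio of control to ketogenic in enterocytes was 54.2 per UMI sequenced, with a 95% interval of 9.39 to 2173 that covers counting error only. By edgeR the log2 fold change was -5.48 ± 1.17 in enterocytes and -4.04 ± 0.89 in all cells, and neither passed the threshold (adjusted p = 0.174 and 0.194), though DESeq2 called it in enterocytes (adjusted p = 0.0287) and gave it no adjusted p in all cells. Scd1 passed the filter on low counts through the control libraries alone, so these fitted values describe the counts and are no further support. Leaving out 1 library moved the enterocyte value from -4.32 (without control library 1) to -8.00 (without ketogenic library 1).

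Transit amplifying cells held 5 and 2 Scd1 UMIs with control feeding and 0 in both ketogenic libraries, at least 1.95-fold lower when set against a floor of 3 counts over the group. Stem cells went the other way in numbers too small to compare, with 1 UMI on the control diet and 3 on the ketogenic diet (ratio 0.325, 95% interval 0.00618 to 4.04). Goblet cells held 1 and 0. The Paneth, enteroendocrine and tuft cells held 0 Scd1 UMIs in every library, which allows up to 3.44 to 5.07 CPM in the Paneth class and 1.64 to 2.65 CPM in the other 2 types. Scd1 passed the filter on low counts only in enterocytes among the 7 types.

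Elovl6, which lengthens palmitate to stearate and so makes the substrate of stearoyl-CoA desaturase, was lower on the ketogenic diet in all 5 types in which it was tested, and called in none. In enterocytes it stood at 92.4 and 65.8 CPM with control feeding against 71.0 and 52.6 CPM with ketogenic feeding, and these ranges overlapped (log2 fold change -0.36 ± 0.20). In goblet cells it was at 32.4 and 28.5 CPM against 21.8 and 24.02 CPM, without overlap (-0.41 ± 0.15, adjusted p = 0.351 by edgeR). In transit amplifying cells it was at 54.5 and 37.5 CPM against 33.3 and 32.2 CPM (-0.48 ± 0.17, adjusted p = 0.358 by edgeR). Stem and tuft cells gave -0.42 ± 0.22 and -0.60 ± 0.29. Both ketogenic libraries were the lowest in 4 of 5 types. Without control library 1 the values were -0.0932 in enterocytes, -0.20 in transit amplifying cells and -0.21 in all cells, against -0.60, -0.73 and -0.73 without control library 2, each of which edgeR called.

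Elovl1, which builds saturated very-long-chain acids for sphingolipids, was lower in 4 of the 6 types tested and called in none. In enterocytes it stood at 74.9 and 64.1 CPM with control feeding against 49.97 and 56.2 CPM with ketogenic feeding (-0.39 ± 0.12, adjusted p = 0.373 by edgeR). In transit amplifying cells it was at 57.4 and 54.9 CPM against 41.0 and 49.0 CPM (-0.31 ± 0.13). It ran the other way in enteroendocrine cells, at 58.9 and 54.5 CPM against 70.6 and 65.5 CPM (0.29 ± 0.23), and in tuft cells its libraries overlapped (0.14 ± 0.20).

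Elovl5, the elongase of polyunsaturated chains, was called in none of the 5 types tested. Its log2 fold changes ran from -0.34 in transit amplifying cells to 0.52 in enteroendocrine cells, and the libraries of the diets were apart in 2 of 5 types, enterocytes and transit amplifying cells. In enterocytes it was at 21.6 and 23.7 CPM with control feeding against 17.3 and 20.6 CPM with ketogenic feeding (-0.26 ± 0.14, adjusted p = 0.583 by edgeR).

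The front-end desaturases of the polyunsaturated pathway had 0 calls as well. Fads1 in enterocytes was at 28.2 and 38.5 CPM on the control diet and 34.1 and 38.9 CPM on the ketogenic diet, with a log2 fold change of 0.13 ± 0.17 and a 95% interval of -0.27 to 0.53. The diets overlapped in all 6 types in which Fads1 was tested. Fads2 in enterocytes was at 14.3 and 14.1 CPM against 11.2 and 13.1 CPM (-0.22 ± 0.14), with all 4 types tested giving negative values, from -0.53 in goblet cells to -0.10 in transit amplifying cells. The 95% interval of -0.56 to 0.11 for Fads2 in enterocytes does not reach the -2.50 of Scd2.

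**Figure D3:**
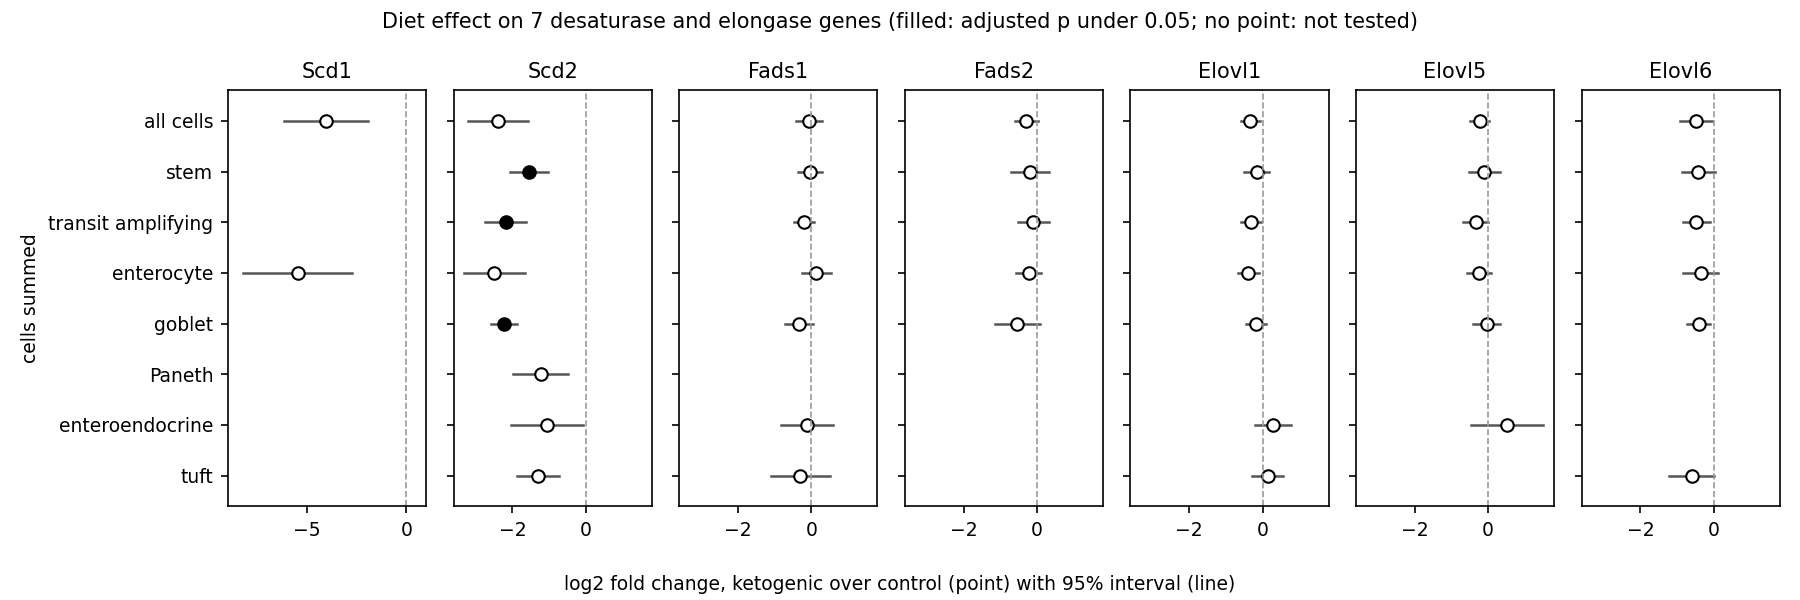
Log2 fold change of each gene, ketogenic over control, with its 95% interval, by the cells summed; filled points have an adjusted p under 0.05 by edgeR and Scd1 has its own axis. The 3 filled points are all Scd2, in stem, transit amplifying and goblet cells, and the Fads1 intervals all span 0.

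Counted together, 7 of 7 genes were lower on the ketogenic diet in all cells summed, with a median log2 fold change of -0.34 against 0.01 over all genes tested. In enterocytes 6 of 7 were lower (median -0.36 against 0.02), and in stem, transit amplifying and goblet cells 6 of the 6 tested were lower (medians -0.17, -0.32 and -0.37, against 0.00 in each). In tuft cells 3 of 4 and in enteroendocrine cells 2 of 4 were lower, and in the Paneth class Scd2 alone was tested. In all cells 6 of 7 had both ketogenic libraries below both control libraries, where 21.1% of all genes did. Genes that did not pass the filter in a type are not in these counts. Scd1 is in the counts and medians of all cells and enterocytes. It passed the filter there through the control libraries alone, so its place in these counts is no further support. The same holds for Scd2 in the count of enteroendocrine cells.

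The levels of the genes differed between cell types, here on 1 normalization over the 28 sums of type and library. They are given without a test, because the types were assigned from the same cells. Counts of 3' ends do not scale with transcript length, and no gene is ranked against another. On the control diet Scd2 had its highest median in enterocytes (172 CPM, 112 to 233), followed by goblet cells (158 CPM), the Paneth class (150 CPM) and transit amplifying cells (127 CPM). These 4 overlapped their neighbours in the order, and a gap separated them from tuft cells (64.8 CPM), stem cells (51.9 CPM) and enteroendocrine cells (22.1 CPM). On the ketogenic diet the Paneth class led with 64.0 CPM, and goblet cells, enterocytes, transit amplifying cells and tuft cells lay between 25.7 and 33.7 CPM. That Paneth value rests on 13 and 20 Scd2 UMIs in ketogenic libraries 1 and 2. Scaled to plain UMI totals, these libraries were at 24.7 and 57.9 CPM, against 28.2 and 34.6 CPM in goblet cells, so the lead depends on the normalization.

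Elovl6 was highest in enterocytes on both diets, at 83.8 CPM on the control diet and 64.2 CPM on the ketogenic diet, with no overlap with the next type. It was lowest in enteroendocrine cells, at 5.53 CPM on the control diet. Fads1 was highest in the proliferating types, and the Fads2 libraries of these types overlapped those of enterocytes on the control diet. Fads1 reached 57.5 CPM in transit amplifying cells and 50.2 CPM in stem cells on the control diet, against 17.9 CPM in tuft cells, and Fads2 reached 17.3 and 16.0 CPM, beside 15.04 CPM in enterocytes and 2.57 CPM in enteroendocrine cells. Elovl1 led in enterocytes and tuft cells on the control diet (73.6 and 64.8 CPM, overlapping), while tuft cells led on the ketogenic diet (71.4 CPM). Elovl5 lay between 23.96 and 29.3 CPM in stem cells, transit amplifying cells, goblet cells and enterocytes on the control diet, where neighbours overlapped, and was lowest in tuft cells (6.68 CPM).

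**Figure D4:**
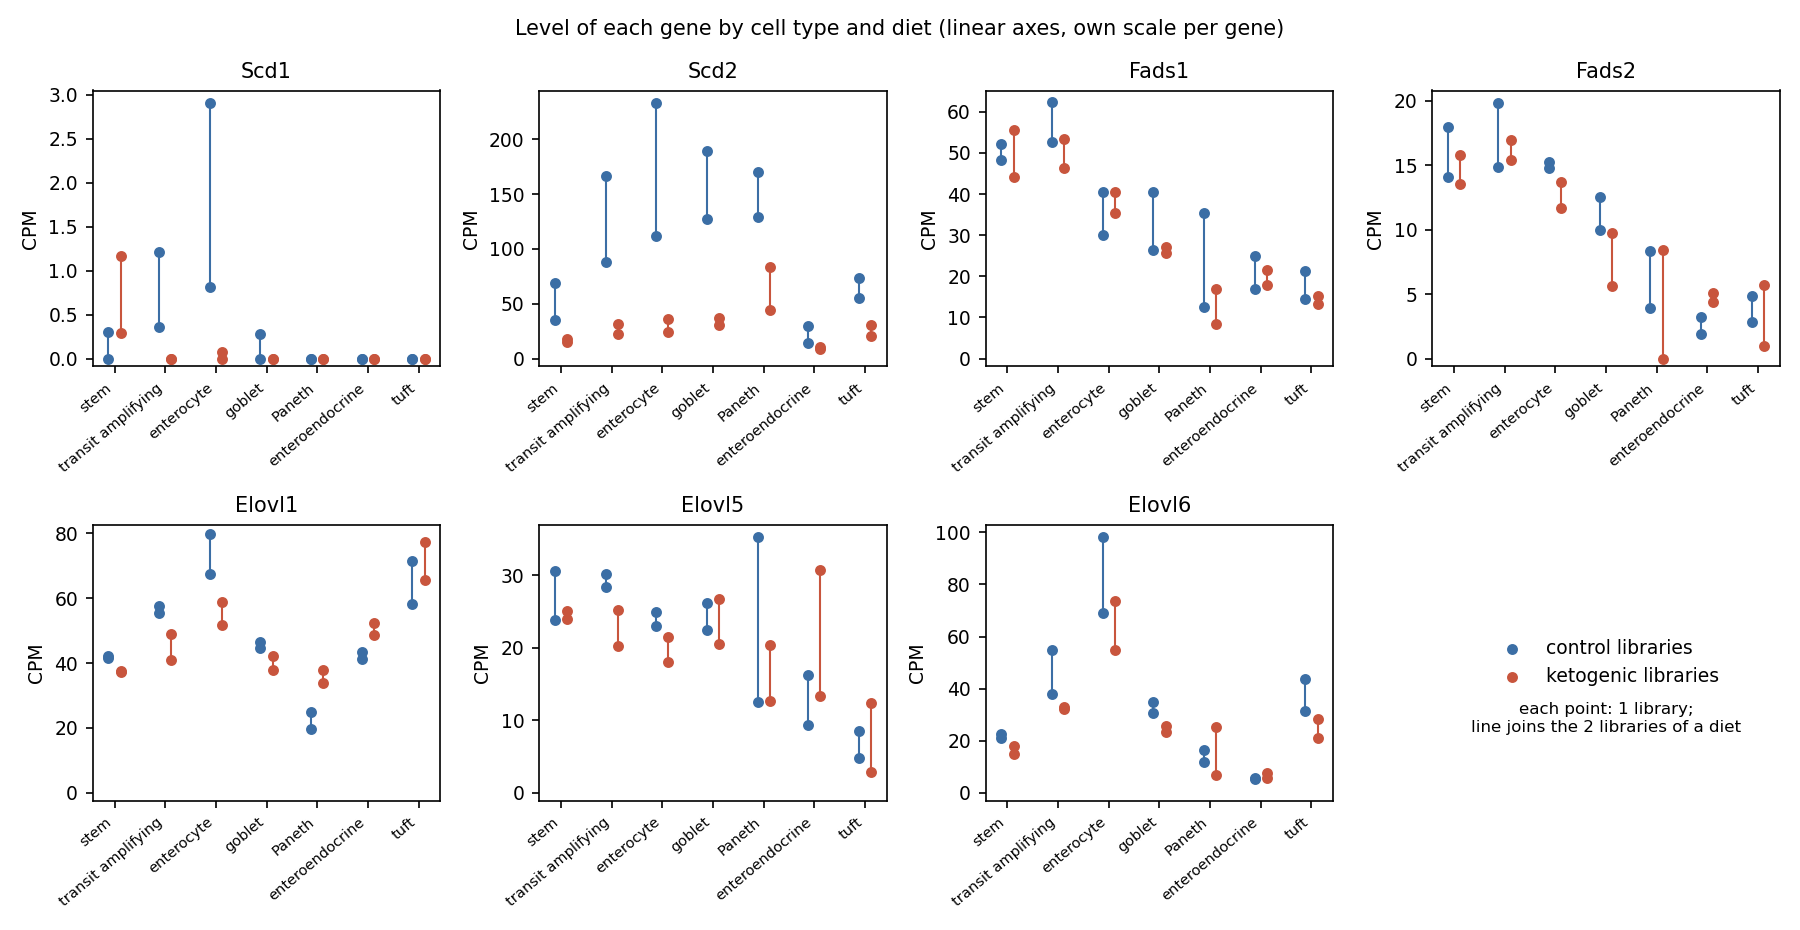
Level of each gene in CPM (linear axes that differ between genes) by cell type and diet; each point is 1 library and a line joins the 2 libraries of a diet. Scd2 shows a gap between the diets in 7 of 7 types, Elovl6 is highest in enterocytes, and Fads1 is highest in stem and transit amplifying cells.

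The genes whose levels over the 28 sums most resembled each member were searched among 2255 genes with a mean of at least 50 CPM. The sums share libraries, depth and cell types, and the correlations of log2 (CPM + 1) are a description. Scd2 was closest to Hras, Misp and the cholesterol synthesis gene Fdps, with Pearson r of 0.77 each. Fads1 was closest to the chromatin gene Dek (0.93), the nuclear import gene Kpnb1 (0.92) and the splicing gene Snrpf (0.92). Fads2 was closest to Nr2f6 (0.94), Rangrf (0.89) and Timm44 (0.88). Elovl6 was closest to Tmem14c (0.91), the respiratory chain gene Uqcrb (0.90) and the claudin Cldn7 (0.90). Elovl1 was closest to Dnaja2 (0.82), Casp6 (0.80) and Med8 (0.80), and Elovl5 to Ptgr1 (0.80), Tmem97 (0.79) and Pdlim1 (0.78). Scd1, with its few counts, reached at most 0.67 (Smim24), beside 0.65 for Gna11. Among the members themselves Fads1 and Fads2 gave 0.67, Scd2 and Elovl6 0.52, and Scd2 and Fads1 0.04.

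The partners of these enzymes in chain lengthening and desaturation gave 0 calls by edgeR in each of the 7 types. The elongation cycle after the condensing step is run by a ketoreductase (Hsd17b12), dehydratases of the Hacd family and a reductase (Tecr), and 0 of the 5 tested in enterocytes were called by edgeR or DESeq2, with 0 at an unadjusted p under 0.05. Hsd17b12 in enterocytes was at 120 and 119 CPM with control feeding against 106 and 106 CPM with ketogenic feeding (log2 fold change -0.17 ± 0.10), and Tecr at 236 and 245 CPM against 212 and 236 CPM. Of the cytochrome b5 system that supplies desaturases with electrons, 0 of the 5 tested in enterocytes were called by either tool, with 0 at an unadjusted p under 0.05. Cyb5a in enterocytes was at 358 and 318 CPM against 303 and 286 CPM (-0.20 ± 0.11). Other desaturases and elongases (Fads3, Elovl7, Degs1 and Degs2 tested in enterocytes, of 10 listed) gave 0 calls, with values from -0.58 for Fads3 to 0.20 for Degs1.

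Of 8 genes of fatty acid synthesis from citrate to palmitate, 2 rose in enterocytes and 0 fell by edgeR. Fasn, the synthase, was at 30.7 and 31.1 CPM with control feeding against 28.5 and 28.2 CPM with ketogenic feeding of enterocytes (-0.12 ± 0.11), and the carboxylase Acaca at 10.6 and 10.1 CPM against 9.27 and 10.6 CPM. The called genes were Me1 and Acacb. Me1, the malic enzyme that yields NADPH, was at 5.51 and 3.98 CPM with control feeding against 55.8 and 28.6 CPM with ketogenic feeding of enterocytes (3.15 ± 0.34, adjusted p = 0.0366 by edgeR). It also rose in transit amplifying and goblet cells and in all cells. With control feeding Me1 was at 1.94 and 1.44 CPM in transit amplifying cells and at 1.54 and 1.58 CPM in goblet cells. In these types it passed the filter on low counts through the ketogenic libraries alone, so those calls are no further support. Acacb, the carboxylase that regulates fat oxidation, was at 0.764 and 0.673 CPM against 7.54 and 4.32 CPM in enterocytes and rose there (3.03 ± 0.38, adjusted p = 0.0491 by edgeR). The list median in enterocytes was -0.01, against 0.02 over all genes.

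Of the regulators, 0 of 12 were called by edgeR in enterocytes, with 3 at an unadjusted p under 0.05 and 1 called by DESeq2. Srebf1, which encodes SREBP1, was at 30.01 and 17.8 CPM against 21.5 and 21.1 CPM in enterocytes (-0.17 ± 0.23). Insig1, a sterol-sensitive brake on SREBP processing and itself an SREBP target, was at 67.3 and 36.7 CPM against 26.6 and 27.9 CPM (-0.93 ± 0.26, adjusted p = 0.292 by edgeR and 0.0115 by DESeq2). Mlxipl, the carbohydrate-responsive factor ChREBP, was at 130 and 107 CPM against 84.8 and 81.2 CPM (-0.52 ± 0.12, adjusted p = 0.221 by edgeR). The ketogenic libraries were below the control libraries for Insig1 and Mlxipl and not for Srebf1.

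Genes of cholesterol synthesis, the classical SREBP2 targets, were lower alongside Scd2 in enterocytes, transit amplifying cells and goblet cells, and less uniformly in the other types. All 20 listed genes had negative log2 fold changes in enterocytes, transit amplifying cells, goblet cells and all cells, with medians of -0.71, -0.54, -0.35 and -0.59, against 0.00 to 0.02 over all genes. Both ketogenic libraries lay below both control libraries for 17 of the 20 in enterocytes, where 20.5% of all genes did. Of them 4 fell in transit amplifying cells and 4 in goblet cells, and 0 were called in enterocytes or all cells by edgeR, where 16 of 20 had an unadjusted p under 0.05 in each and DESeq2 called 8 and 7. In transit amplifying cells Fdft1, squalene synthase, was at 57.6 and 56.0 CPM with control feeding against 27.5 and 30.6 CPM with ketogenic feeding (-0.96 ± 0.13, adjusted p = 0.00297 by edgeR). Sqle, squalene epoxidase, and Hmgcs1, which makes HMG-CoA, fell by 1.01 ± 0.16 and 0.78 ± 0.12 on the log2 scale there. In goblet cells Hmgcs1, Fdft1 and Mvd, a mevalonate pathway enzyme, fell by 0.72 ± 0.11, 0.66 ± 0.10 and 0.78 ± 0.15, and DESeq2 did not call Mvd there (adjusted p = 0.266). In stem cells 15 of 20 were lower and 0 were called, with 7 at an unadjusted p under 0.05 and 0 called by DESeq2. Of those tested, 10 of 13 were lower in the Paneth class, 11 of 17 in tuft cells and 10 of 14 in enteroendocrine cells. Their medians were -0.36, -0.24 and -0.05, against -0.01, 0.00 and 0.00 over all genes, and 0 were called in these types by edgeR or DESeq2.

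Genes that use desaturated chains, the acyl-CoA synthetases and the acyltransferases of phospholipids and triglycerides, gave 0 calls by edgeR or DESeq2 among the 15 tested in enterocytes, with 4 at an unadjusted p under 0.05. Lpcat3, which places polyunsaturated chains into phospholipids, was at 110 and 93.1 CPM against 108 and 88.2 CPM in enterocytes (-0.06 ± 0.14). Acsl5, an acyl-CoA synthetase of the gut, was at 169 and 128 CPM against 120 and 116 CPM (-0.33 ± 0.14). PPAR receptors sense fatty acids in the nucleus, and several of their target genes rose. In stem cells 4 of 7 tested rose, among them Fabp1, an intracellular fatty acid carrier (3.44 ± 0.19), Acot1, an acyl-CoA thioesterase (1.75 ± 0.14), and Cpt1a, which imports acyl chains into mitochondria (0.88 ± 0.17, not called by DESeq2, adjusted p = 0.203). In enterocytes 3 of 10 rose, among them Acot1 (2.88 ± 0.32) and the fatty acid hydroxylase Cyp4a10 (5.01 ± 0.61). Cyp4a10 was at 0.218 and 0.466 CPM with control feeding against 16.3 and 6.51 CPM with ketogenic feeding. It passed the filter on low counts through the ketogenic libraries alone, so its fitted value and call are no further support.

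**Figure D5:**
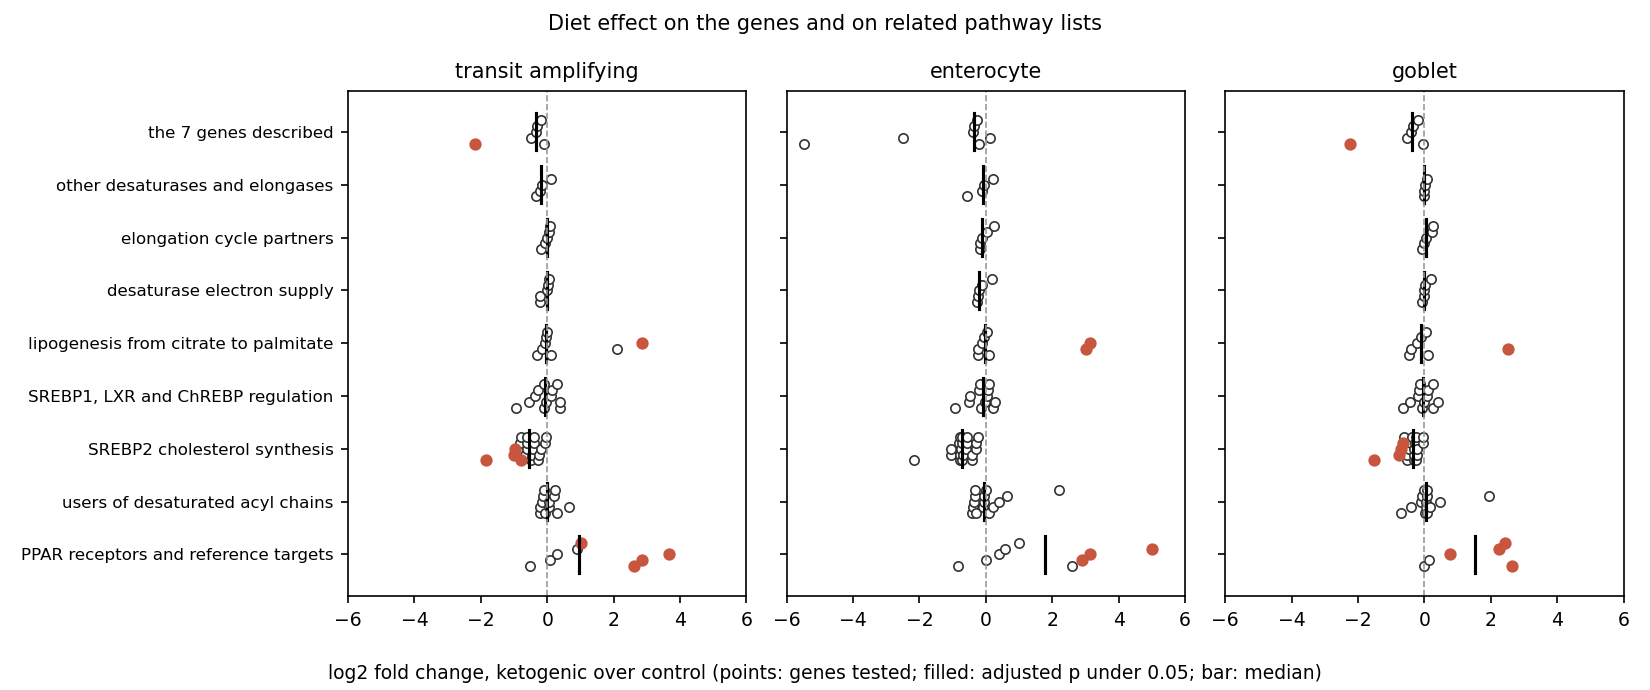
Log2 fold change, ketogenic over control, of every tested gene of 9 lists in transit amplifying cells, enterocytes and goblet cells; filled points have an adjusted p under 0.05 by edgeR and bars are list medians. The 20 SREBP2 genes all lie below 0 in the 3 panels, the lists for the elongation cycle and for electron supply lie near 0, and filled points of the PPAR list lie above 0.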

How the data were processed

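Small intestinal cells of mice on 2 diets were profiled with 10x 3' v2 chemistry, per the labels' protocols. UMI counts per gene and cell were deposited by the authors in 1 matrix of 4 libraries with cell types, and Cell Ranger 2.1.0 and mm10 are named in the submitters' processing notes. How cells were filtered, doublets handled and types assigned is not stated. Scrublet in scanpy 1.11.5 called 0.0204% to 0.188% of cells as doublets, too few to be taken as a working call, so no cell was removed.

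Counts were summed per library and cell type and tested with edgeR 4.0.16 in R 4.3.3 (TMM, filterByExpr, quasi-likelihood F test). Standard errors are the log2 fold change divided by the root of F. CPM values of single genes use TMM-adjusted totals unless stated. Marker sums, percentages of the enterocyte level, and the Scd1 count ratios and limits use plain UMI totals. Exact permutation of 2 against 2 libraries cannot give a two-sided p below 0.333. The test scripts were checked on simulated data. At a true log2 size of 1, 53% (tuft cells) to 79.8% (enterocytes) of changed genes were recovered, and at a size of 2, 97% to 99%. Unchanged genes were also called, from 2 in goblet cells (9862 genes run) to 22 in enterocytes (11567 genes run, with 99 and 98 changed genes tested at the 2 sizes). The simulated counts varied only by the spread estimated per gene from these libraries, so these rates need not hold for the real ones. In the real enterocytes Scd2, at -2.50, was not called by edgeR.

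Each result was recomputed with DESeq2 1.42.0, with RLE scaling in edgeR, without the expression filter, on cells below 10% mitochondrial UMIs, without the top 6% of doublet scores per library, on thinned sums, on an equal mix of types (all cells), with the replicate number as a block, and with 1 library omitted at a time. The genes, pathway lists and marker lists were chosen with earlier results of these data known. Named pathway genes are up to 4 called genes per list and type by smallest adjusted p. Genes named without a call illustrate their list and were chosen after their values were seen. For each of the 7 genes, the 3 genes of highest Pearson r are also named. These rules take 3 further genes that are not reported here; those on a pathway list are kept in counts and plots. Sequences and positions come from GENCODE M21, an mm10 annotation, matched by symbol for all 7 genes. The annotation used for counting may differ.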

Additional observations from a re-analysis of the deposited data

How the results depend on the processing

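Over 53 pairs of a gene and a population, 501 log2 fold changes were computed under alternatives, of which 479 had the direction of the reported value. The 22 of opposite direction concerned Fads1, Fads2 and Elovl5, and 0 of these passed the threshold. All 94 Scd2 values were negative. For Scd2 in enteroendocrine cells the mitochondrial, doublet and thinned settings gave no value, because the gene no longer passed the filter. With 2 libraries per diet, leaving out 1 leaves a lone library that is assumed to vary like the others.

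The number of the 7 genes called moved as follows. In all cells (0 reported) it was 1 with DESeq2, 2 with no filter on low counts, 1 with an equal mix of types and 0 to 3 when a library was left out. In stem cells (1) it was 0 with the mitochondrial limit. In transit amplifying cells (1) it was 2 with no filter and 1 to 2 when a library was left out. In enterocytes (0) it was 2 with DESeq2, 2 with no filter, 1 with the mitochondrial limit, 2 with the replicate block and 0 to 4 when a library was left out. In goblet cells (1) it was 1 to 2 when a library was left out. In the Paneth class (0) it was 1 with no filter and 1 with the replicate block. In tuft cells (0) it was 0 to 1 when a library was left out, with Scd2 called without ketogenic library 2 (-1.59). In the higher-scoring enterocytes (0) it was 0 to 5, and control library 2 decided the highest value, where 4 fell, Fads1 rose (0.55) and 2294 of all genes were called. Without control library 2 Scd1, Scd2 and Elovl6 were called in all cells and in enterocytes, Elovl1 also in enterocytes, and Elovl6 in transit amplifying cells. Without control library 1 Scd2 was called in all cells, in enterocytes and in the higher-scoring enterocytes. Without control library 1 Fads1 was called in goblet cells (-0.61).

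Deviations of same-numbered libraries correlated at -0.04 to 0.08 over genes. With 2 pairs this cannot tell whether same-numbered libraries share more than a number. The replicate block raised the genes called from 21 to 137 in enterocytes, 32 to 99 in stem cells, 72 to 200 in transit amplifying cells, 52 to 104 in goblet cells and 13 to 57 in the Paneth class, and it called Scd2 (-2.42) and Scd1 (-5.44) in enterocytes and Scd2 in the Paneth class (-1.23). DESeq2 called 211 genes in all cells and 176 in enterocytes, against 22 and 21 by edgeR, and 14 in stem cells and 24 in goblet cells, against 32 and 52. With no filter 407, 313, 279 and 74 genes were called in all cells, enterocytes, transit amplifying cells and stem cells, while the number fell to 35 in goblet cells and 0 in tuft cells.

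For some genes the sign changed. Thinning gave 0.0353 for Fads2 and 0.0847 for Elovl5 in stem cells. The mitochondrial limit gave 0.0294 for Fads2 in transit amplifying cells and 0.0359 for Elovl5 in goblet cells. Leaving out the highest doublet scores gave 0.0497 for Elovl5 in goblet cells, 0.00985 for Fads1 in enteroendocrine cells and 0.0911 for Fads1 in tuft cells. When a library was left out, Fads1 ran from -0.26 to 0.14 in all cells, -0.19 to 0.15 in stem cells, -0.0782 to 0.36 in enterocytes, -0.29 to 0.24 in enteroendocrine cells, -0.58 to 0.00313 in tuft cells, -0.0556 to 0.17 in lower-scoring and -0.10 to 0.55 in higher-scoring enterocytes. Fads2 ran from -0.31 to 0.0357 in stem cells and -0.27 to 0.13 in transit amplifying cells. Elovl5 ran from -0.30 to 0.0656 in stem cells, -0.25 to 0.14 in goblet cells and -0.0267 to 1.17 in enteroendocrine cells. The Scd2 interaction ran from -0.0199 to 0.47 for goblet cells against enterocytes and from -0.37 to 0.41 between the 2 groups of enterocytes. The cause of these shifts was not tested.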
